A study of Mus musculus with 6 samples.

Results

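PGC-1 coactivators, PPAR receptors and nuclear respiratory factors form the transcriptional machinery that sets how many mitochondria a muscle fibre holds and how much fat it burns. PGC-1 proteins do not bind DNA themselves. They dock on receptors such as PPARs and ERRα and on the factors NRF1 and GABPA, which switch on genes of fatty acid oxidation and respiration, and among the targets are TFAM and TFB2M, which start transcription of the mitochondrial genome.

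The genes described here are Ppargc1a, Ppargc1b, Ppara, Ppard, Pparg, Esrra, Nrf1, Gabpa, Tfam and Tfb2m. They were chosen by symbol, and all 10 were measured, out of 12393 genes on the array. They were read by 17 of 22626 probe sets, each probe set being a group of short oligonucleotides that matches 1 or more transcripts of a gene. In the study, an adeno-associated virus (AAV) was injected into skeletal muscle of wild-type C57BL/6 mice to test what the transcription factor TFEB does to muscle gene expression. The muscle of 3 mice received AAV carrying murine TFEB (Tcfeb), and the muscle of 3 other mice received AAV carrying GFP. The labels give the age of all mice as 1 month, and the study's methods call the animals adult. Every mouse gave 1 array of total RNA, numbered 1 to 3 within its group. Per the methods, the CMV promoter, which is not limited to muscle fibres, drives the viral transgene.

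All array values below are log2 values made by RMA, a method that corrects background and makes the distributions of the arrays alike. The arrays are called TFEB and GFP by their labels, and every direction given below rests on those labels. The probe set for Tfeb itself gave 7.92, 7.68 and 7.61 on the TFEB arrays, against 8.49, 8.47 and 8.58 on the GFP arrays and so went against the label. Whether it can read the viral transcript was not tested. Fast fibre contractile genes averaged 13.96 to 13.99 on the TFEB arrays and 13.97 to 13.99 on the GFP arrays, close to the highest values of the arrays. Of 8 slow fibre contractile genes 1 was higher (median difference 0.59), Tnni1. Its call was lost without TFEB replicate 1, TFEB replicate 3 or GFP replicate 3 (limma adjusted p = 0.0571, 0.0666 and 0.0623). It was also lost in the two-tailed test that the methods name (adjusted p = 0.0826). Other calls were gained. Tnnt1, Atp2a2 and Myoz2 were higher without GFP replicate 1 (adjusted p = 0.0124, 0.00558 and 0.0189). With the replicate number as a block, Myh7, Tnnt1 and Atp2a2 were higher (adjusted p = 0.0109, 0.0236 and 0.0499). Myoz2 was also higher without TFEB replicate 3 and after repeated quantile normalization. The mean level of the 8 genes was 11.3 to 11.8 on the TFEB arrays, against 11.5, 10.5 and 10.8 on the GFP arrays. GFP replicate 2 stood apart, with 844 and 725 probe sets more than 2-fold from GFP replicates 1 and 3, whereas pairs of TFEB arrays differed that much at 45 to 101. Of 14 macrophage markers, 1 was higher on the TFEB arrays by limma (median log2 difference 1.20) and 0 by the two-tailed test. The mean marker level was 8.16 to 8.95 on the TFEB arrays, against 6.75, 8.89 and 6.89 on the GFP arrays, the high one being GFP replicate 2. Without that array 13 of the 14 markers were higher, and so were 2428 of all 22626 probe sets, against 1700 with it. Genes of regenerating muscle were higher in 11 of 13 cases by limma, where 8.62% of all genes were, and in 10 by the two-tailed test. Endothelial markers were higher in 4 of 8 (mean level 8.03 to 8.28 on the TFEB arrays, 7.28 to 7.51 on the GFP arrays). Fibroblast markers were higher in 4 of 8 (10.3 to 10.7 on the TFEB arrays, 9.51 to 9.62 on the GFP arrays). The part of these cells in the values below was not tested. In whole muscle, fewer cells of a type and less RNA per cell cannot be told apart.

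A probe set was called higher or lower at an adjusted p under 0.05 (limma, Benjamini-Hochberg over all 22626 probe sets) with a change of at least 1.5-fold. Of the 10 genes, each read by its probe set of highest mean, 1 was higher in TFEB muscle, 2 were lower and 7 did not pass. Of the lower genes, Nrf1 passed at 1 of its 3 probe sets, and its call depends on that choice of probe set. Over all genes 8.62% were higher and 4.9% were lower. Of the 17 probe sets, 1 was higher and 2 were lower, beside 7.51% and 6.11% of all probe sets. An adjusted p under 0.05 without the fold limit was reached by 4 of the 17 and by 32.6% of all probe sets. Counts of listed genes at an unadjusted p under 0.05 are also given below. The share of all genes at that limit was not computed, but for all probe sets it is at least 32.6%. Nothing is read from those counts. The 2 groups did not overlap at 8 of the 17, with TFEB above GFP at 2 and below it at 6, and 49.9% of all probe sets did not overlap. The median log2 difference was -0.19 over the 10 genes and -0.046 over all genes. The shares without overlap and under the adjusted p limit were near the background, and nothing is read here from the members as a group. With the arrays set to equal medians, which put the median of all probe sets at -0.13, against -0.064 as deposited, 45.2% of all calls were higher, against 55.2% as deposited, and the same 3 member probe sets were called in the same directions.

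**Figure D1:**
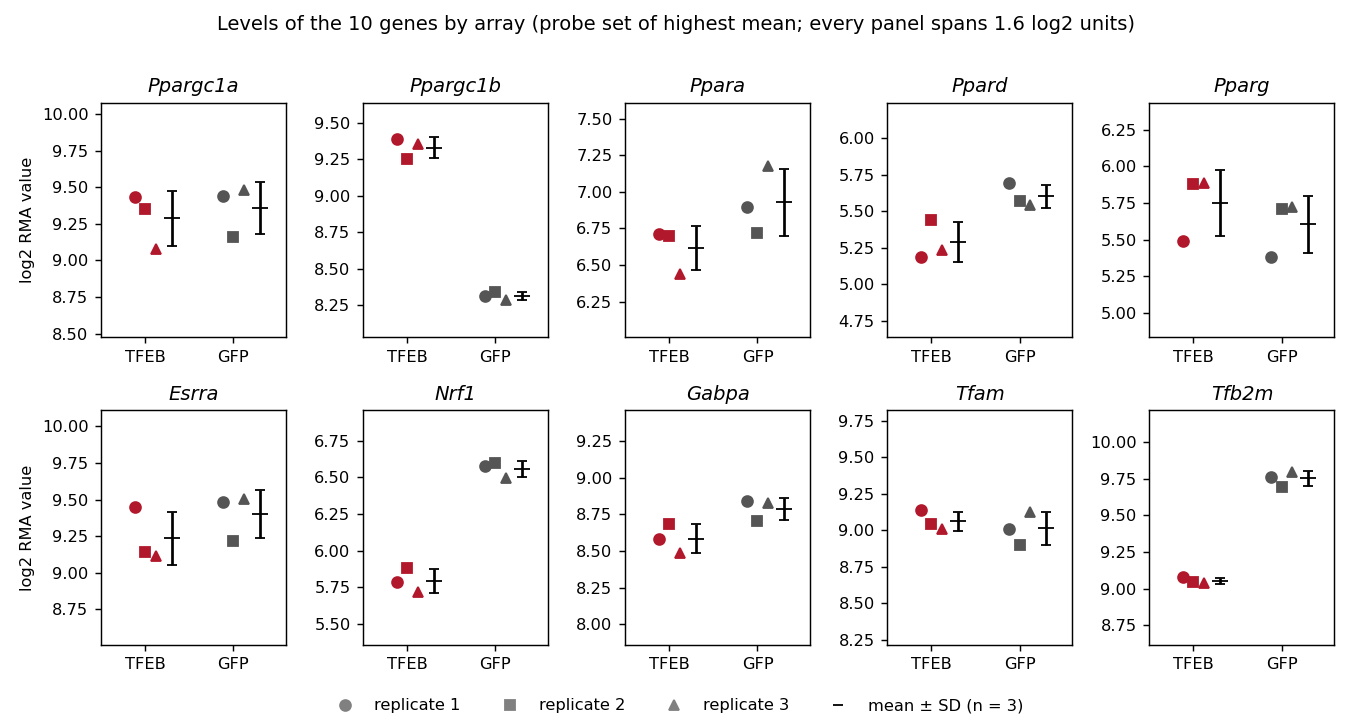
Log2 RMA value of the 10 genes on each array (y axis), read by the probe set of highest mean, with the 3 TFEB arrays left of the 3 GFP arrays in each panel and the mean ± SD beside the points. Ppargc1b lies above its GFP arrays without overlap, Nrf1 and Tfb2m lie below theirs, and in Ppargc1a, Pparg, Esrra and Tfam the groups overlap.

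Of the PGC-1 coactivators, Ppargc1b was higher and Ppargc1a did not pass the threshold. Ppargc1b encodes PGC-1β, a coactivator of ERRs and NRF1 that drives respiratory genes in oxidative fibres. It lies at chr18:61291445-61400756 (GRCm38.p6). Its probe set 1449945_at gave 9.38, 9.25 and 9.35 on the TFEB arrays, against 8.32, 8.34 and 8.28 on the GFP arrays. All TFEB values were far above all GFP values, and the spread within a group was small beside the gap. The difference was 1.01 ± 0.070 (SE, n = 3 per group), with a 95% interval of 0.85 to 1.18, or 2.02-fold (adjusted p = 0.000494). Without GFP replicate 2 it was 1.03 (adjusted p = 0.000311).

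Ppargc1a encodes PGC-1α, the coactivator that contraction, cold and fasting induce in muscle, and it lies at chr5:51454249-52115853. It was read by 5 probe sets, of which none passed. The brightest, 1460336_at, gave 9.43, 9.35 and 9.07 on the TFEB arrays, against 9.44, 9.16 and 9.48 on the GFP arrays. The groups overlapped, and the lowest value was on a TFEB array. The difference was -0.073 ± 0.13 (95% interval -0.38 to 0.24, adjusted p = 0.689). Probe sets 1434100_x_at, 1434099_at and 1437751_at differed by 0.012, -0.019 and -0.039.

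The fifth Ppargc1a probe set, 1456395_at, gave 8.27, 8.01 and 7.85 on the TFEB arrays, against 7.77, 7.66 and 7.82 on the GFP arrays. Here the TFEB values lay above the GFP values without overlap, but the lowest TFEB value was close to the highest GFP value. The difference of 0.29 ± 0.12 had an adjusted p of 0.102 and ran from 0.18 to 0.39 over the alternatives, which left out each array in turn or changed the scaling, the filter, the weights, the block or the test.

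The response of Ppargc1b was set against that of Ppargc1a within each array. Ppargc1b minus Ppargc1a was -0.046, -0.10 and 0.28 log2 units on the TFEB arrays, against -1.13, -0.82 and -1.19 on the GFP arrays. Each gene is read by its own probes, so the position of these differences has no meaning of its own, but their shift between the groups does. The shift of 1.09 had an exact permutation p of 0.1 (two-sided), which is the smallest that 3 against 3 arrays can give.

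**Figure D2:**
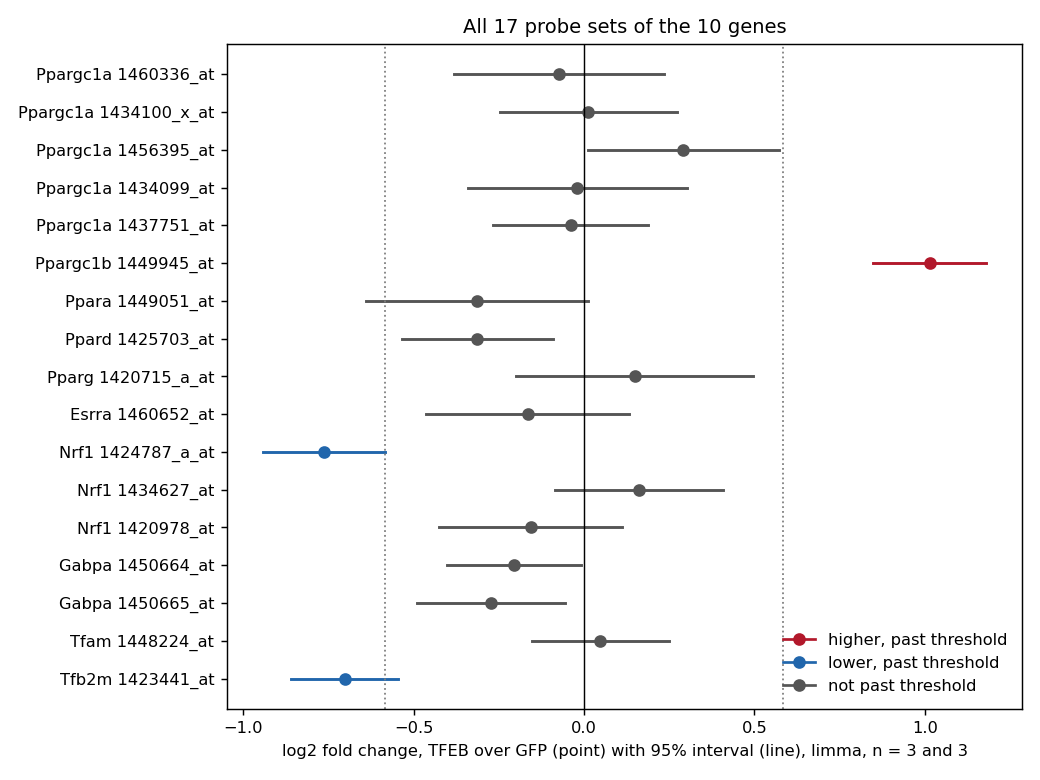
Log2 fold change of TFEB over GFP (x axis) for all 17 probe sets of the 10 genes (rows), as points with 95% intervals from limma, with dotted lines at 1.5-fold in either direction. Ppargc1b at 1.01 stands alone on the right, 1 of 3 Nrf1 probe sets and Tfb2m lie past the dotted line on the left, and the other 14 lie within the limits.

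None of the PPAR genes passed the threshold. These encode lipid-activated receptors that bind DNA as partners of an RXR receptor. Ppara, the receptor best known for fasting-induced fat oxidation, gave 6.71, 6.70 and 6.44 on the TFEB arrays, against 6.89, 6.72 and 7.18 on the GFP arrays. The groups did not overlap, but the highest TFEB and the lowest GFP value nearly touched. The difference of -0.31 ± 0.14 had an adjusted p of 0.123, which ran from 0.0373 to 0.313 over the alternatives.

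Ppard encodes PPARδ, the form that predominates in skeletal muscle and promotes oxidative metabolism. It gave 5.19, 5.44 and 5.24 on the TFEB arrays, against 5.69, 5.57 and 5.54 on the GFP arrays. The TFEB values were all below the GFP values. The difference of -0.31 ± 0.092 had an adjusted p of 0.0414 and was under the fold limit, and the adjusted p reached 0.125 among the alternatives.

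Pparg encodes PPARγ, the receptor of adipocyte differentiation. It gave 5.49, 5.88 and 5.89 on the TFEB arrays, against 5.38, 5.71 and 5.72 on the GFP arrays, with a difference of 0.15 ± 0.15 (adjusted p = 0.461). The groups overlapped, and the array of replicate number 1 was the lowest in both. Of 7 adipocyte markers 1 was higher and 0 were lower by limma (median difference -0.38), where 8.62% and 4.9% of all genes were. At an unadjusted p under 0.05, 2 were higher and 4 lower. The two-tailed test that the methods name called 1 higher and 0 lower, and limma without GFP replicate 2 called 1 and 3. The mean marker level was 6.22 to 6.55 on the TFEB arrays and 6.39 to 7.10 on the GFP arrays. The higher one was Cidea, a lipid droplet protein, at 0.88 (adjusted p = 0.00385). The dimmest of the list, Lep and Pck1, averaged 4.00 and 4.16 on the TFEB arrays, against 4.32 and 4.54 on the GFP arrays.

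Esrra encodes ERRα, an orphan receptor through which PGC-1 proteins reach respiratory chain genes. It gave 9.45, 9.14 and 9.12 on the TFEB arrays, against 9.48, 9.21 and 9.50 on the GFP arrays. The groups overlapped, since TFEB replicate 1 lay above GFP replicate 2, and the difference of -0.17 ± 0.12 had an adjusted p of 0.337.

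Nrf1 encodes nuclear respiratory factor 1, which binds promoters of respiratory genes and of Tfam, and lies at chr6:30047985-30153458. Of its 3 probe sets 1 was lower and 2 did not pass. Probe set 1424787_a_at gave 5.79, 5.88 and 5.72 on the TFEB arrays, against 6.58, 6.60 and 6.49 on the GFP arrays. Every TFEB value was below every GFP value, by more than the spread within either group. The difference was -0.76 ± 0.075, a 1.70-fold lower value (adjusted p = 0.00123), and without GFP replicate 2 it was -0.74 (adjusted p = 0.00105).

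Nrf1 probe set 1434627_at gave 6.33, 6.02 and 6.25 on the TFEB arrays, against 5.97, 6.15 and 6.00 on the GFP arrays (0.16 ± 0.10, adjusted p = 0.267). Probe set 1420978_at gave 5.86, 6.21 and 5.88 on the TFEB arrays, against 6.04, 6.17 and 6.21 on the GFP arrays (-0.16 ± 0.11, adjusted p = 0.317). In both of these the groups overlapped, and they leaned in opposite directions. The response of 1424787_a_at was lower than that of the other Nrf1 probe sets by 0.92 and 0.61. Each of these differences had an exact permutation p of 0.1, the smallest possible, and an adjusted p of 0.233 over the 14 pairs of probe sets compared. The suffix _a_at marks a probe set whose probes match several transcripts of 1 gene. The mean of the Nrf1 probe sets was -0.25 (adjusted p = 0.0245) and under the fold limit, so the array gives Nrf1 no single value. In the gene counts Nrf1 was read by 1424787_a_at, which had the highest mean only through the GFP arrays. Its mean was 6.56 there, against 6.04 for 1434627_at and 6.14 for 1420978_at. On the TFEB arrays it was the dimmest, at 5.79 against 6.20 and 5.98.

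Gabpa encodes the DNA-binding subunit of GABP, also called nuclear respiratory factor 2, an ETS-family factor. Its brighter probe set, 1450664_at, gave 8.59, 8.68 and 8.48 on the TFEB arrays, against 8.84, 8.70 and 8.83 on the GFP arrays, and 1450665_at gave 6.32, 6.44 and 6.53 on the TFEB arrays, against 6.79, 6.58 and 6.74 on the GFP arrays. Both were below GFP without overlap, with the nearest values close to each other. The differences were -0.21 ± 0.082 and -0.27 ± 0.091 (adjusted p = 0.0990 and 0.0600), and over the alternatives the adjusted p of the dimmer one ran from 0.0231 to 0.168. The mean of the Gabpa probe sets was -0.24 (limma adjusted p = 0.0456) and under the fold limit. The name NRF2 is also used for Nfe2l2, the oxidative stress factor on another chromosome, which gave 9.25, 9.34 and 9.40 on the TFEB arrays, against 9.25, 9.30 and 9.30 on the GFP arrays (0.047 ± 0.070, adjusted p = 0.630).

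**Figure D3:**
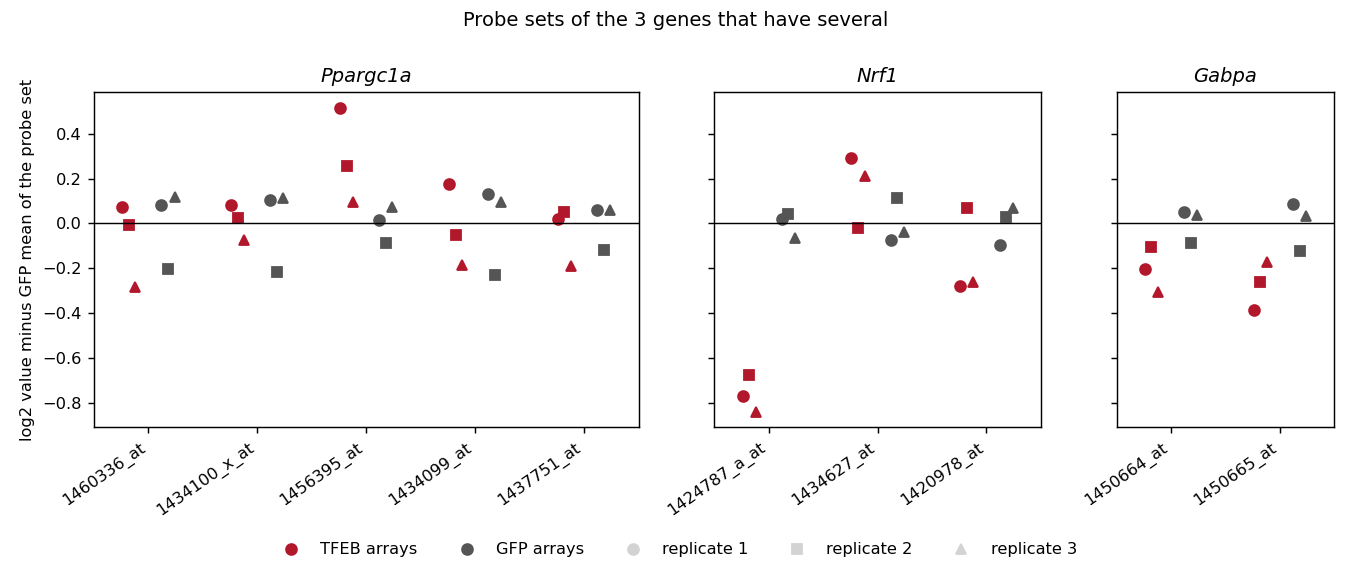
Log2 value minus the GFP mean of the same probe set (y axis) for every probe set of the 3 genes that have several (x axis), with TFEB arrays in red left of GFP arrays in grey and 1 marker shape per replicate number. Of the Nrf1 probe sets only 1424787_a_at falls far below zero, 1 of the Ppargc1a probe sets leans upward, and both Gabpa probe sets lean downward.

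Of the mitochondrial transcription factors, Tfb2m was lower and Tfam did not pass. Tfam encodes the protein that packs mitochondrial DNA and bends its promoters for transcription. It gave 9.14, 9.04 and 9.01 on the TFEB arrays, against 9.01, 8.90 and 9.13 on the GFP arrays. The groups overlapped, and the difference was 0.048 ± 0.084 (95% interval -0.15 to 0.25, adjusted p = 0.688).

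Tfb2m encodes the methyltransferase-like factor that opens the mitochondrial promoter for the RNA polymerase. It gave 9.08, 9.04 and 9.04 on the TFEB arrays, against 9.76, 9.69 and 9.80 on the GFP arrays. All TFEB values lay together and below all GFP values. The difference of -0.70 ± 0.066, a 1.63-fold lower value, had an adjusted p of 0.00109 and was -0.73 without GFP replicate 2 (adjusted p = 0.000676). It ran from -0.77 to -0.68 over the alternatives.

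The actin control probe sets, which compare the 3′ with the 5′ part of a transcript, differed by 0.22 to 0.34 on the TFEB arrays and by 0.037 to 0.077 on the GFP arrays. The part of this difference in the results for Ppargc1b, Nrf1 and Tfb2m was not tested.

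Promoter sequence from RefSeq (GRCm38.p6, 250 bases before to 50 bases after an annotated start) was found for 9 of the 10 genes, in 12 windows. The gene without a window was Ppargc1b, whose promoter was therefore not searched. Both strands were searched for 5 motifs. The ETS motif CCGGAAGT, which GABPA binds, was found in the Tfam window and in 3.89% of all 32851 windows. The NRF1 motif GCGCATGCG was found in the Ppara and Tfb2m windows and in 1.75% of all. The E-box CACGTG, the core of TFEB sites, was found in none of the 12 windows and in 7.15% of all, the ERR motif TCAAGGTCA in none and 0.423%, and the CRE motif TGACGTCA in none and 1.79%. The matched stretches are shown because GABPA and NRF1, which bind these motifs, are encoded by genes of the group, with the motif in capitals. That of Tfam is at chr10:71238073-71238102 (minus strand, bases 58 to 29 before the start), that of Tfb2m at chr1:179546245-179546274 (minus strand, bases 3 to 32 of the transcript, the motif lying on the opposite strand) and that of Ppara at chr15:85735735-85735764 (plus strand, bases 41 to 12 before the start, where the motif and its reverse complement overlap).
Tfam: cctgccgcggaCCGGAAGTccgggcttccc
Tfb2m: ctaggtcgttCGCATGCGCcattcgtaatg
Ppara: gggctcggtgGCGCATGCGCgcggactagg

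Beside these, the study's list of candidate TFEB motifs holds sequences of 14 bases for the promoters of Tfam and Nrf1, which are shown as genes of the group. Those it lists for NRF2 are not shown, since the name can mean Gabpa or Nfe2l2. Their 6-base cores, of the form CANNTG, are in capitals, and 1 of the 3 has the E-box CACGTG. Their place in the genome was not checked here. A match of letters is a description of the sequence and does not show that TFEB or another factor binds it.
Tfam site 1: agtcCACGTGatct
Tfam site 2: agatCAAGTGaaga
Nrf1 site: tcctCATCTGactc

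Of the genes with these sequences, Tfam did not pass the threshold, Tfb2m was lower, Ppara did not pass and Nrf1 was lower at 1 of 3 probe sets. The genes whose pattern over the 6 arrays was nearest to each of 4 members were found by Euclidean distance of the deviations from the GFP mean (log2). For Ppargc1b these were Cds2 (0.098), Pcbd1 (0.12) and Enah (0.13), for Nrf1 Pold2, Aox1 and Nsmaf (0.11 to 0.12), and for Tfb2m Ccdc127 (0.053), Zfp869 and Sys1 (0.079 each). For Ppargc1a they were Extl1 (0.092), Ttc19 (0.14) and Kalrn (0.14).

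Partners of these receptors and factors were read from a list of 14 genes, of which 12 were measured. By limma 0 were higher and 2 were lower (median difference -0.021), where 8.62% and 4.9% of all genes were. At an unadjusted p under 0.05, 2 were higher and 4 lower, and the two-tailed test called 0 higher and 1 lower. The genes named from the lists were those of smallest p past the threshold, or the 2 of smallest p where none passed, with these exceptions. Nfe2l2, Lep, Pck1, Rxrb, Rxrg, Gabpb1, Acadl, Acaa2, Fabp3, Tomm34, Surf1, Crtc2 and Rrm2b were added after their values were seen. The slow fibre genes Myh7, Tnnt1, Atp2a2 and Myoz2 were named for calls they gained in other fits. Rxra, one of the RXR partners of PPARs, gave 8.93, 8.80 and 8.72 on the TFEB arrays, against 9.56, 9.35 and 9.50 on the GFP arrays (-0.65 ± 0.089, 1.57-fold lower, adjusted p = 0.00314). Its other probe set was -0.48 (adjusted p = 0.0280), under the fold limit.

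Rxrb gave 8.56, 8.46 and 8.36 on the TFEB arrays, against 8.88, 8.93 and 8.89 on the GFP arrays, and Rxrg gave 9.08, 8.92 and 9.02 on the TFEB arrays, against 9.52, 9.34 and 9.51 on the GFP arrays. Both lay below GFP without overlap, as 49.9% of all probe sets did in either direction, and their differences of -0.44 and -0.45 (adjusted p = 0.00660 and 0.00910) were under the fold limit. Thrb, the thyroid hormone receptor β, was lower by the threshold at -0.68 ± 0.15 (adjusted p = 0.0145). Its probe set was dim, at a mean of 4.47 on the TFEB arrays and 5.15 on the GFP arrays. The call was lost without TFEB replicate 3 (-0.54, adjusted p = 0.0366, under the fold limit) and without GFP replicate 3 (-0.60, adjusted p = 0.0548). Gabpb1, the activating partner of GABPA, had probe sets that disagreed, at 0.32 (adjusted p = 0.0286) for the brighter and -0.36 (adjusted p = 0.0253) for the dimmer, both under the fold limit.

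Coactivators and corepressors that share these receptors were measured for 13 of 16 genes. By limma 0 passed in either direction (median -0.10), where 8.62% of all genes were higher and 4.9% lower. The two-tailed test also called 0, and at an unadjusted p under 0.05 by limma 0 were higher and 3 lower. The smallest p-values belonged to Ncoa2, a steroid receptor coactivator, with -0.37 ± 0.090 (adjusted p = 0.0220, under the fold limit), and to Nr0b2, the corepressor SHP, with -0.27 ± 0.093 (adjusted p = 0.0689).

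Kinases and factors that act upstream of Ppargc1a in muscle were measured for 14 of 16 genes, of which 1 was higher and 4 were lower (median -0.16), where 8.62% and 4.9% of all genes were. At an unadjusted p under 0.05 by limma 2 were higher and 6 lower, and the two-tailed test again called 1 higher and 4 lower. Mapk14 encodes p38α, which phosphorylates PGC-1α. It gave 9.61, 9.79 and 9.54 on the TFEB arrays, against 10.41, 10.20 and 10.47 on the GFP arrays (-0.71 ± 0.10, 1.64-fold lower, adjusted p = 0.00382). Of its other probe sets, 1416704_at and 1451927_a_at were also lower, at -1.28 and -1.48, and 1426104_at was 0.055. The last of them was dim, at a mean of 4.08 on the TFEB arrays and 4.03 on the GFP arrays.

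Atf2, the CRE-binding factor that p38 activates, was -0.76 ± 0.092 (adjusted p = 0.00218), with its other probe sets at -0.41, -1.01 and -0.88, of which -0.41 was under the fold limit. Camk2a, a subunit of the calcium-dependent kinase CaMKII, was -1.25 ± 0.20 (adjusted p = 0.00533), with 5.39, 5.58 and 5.38 on the TFEB arrays, against 6.89, 6.23 and 7.00 on the GFP arrays, where replicate 2 was the lowest. The fourth lower gene of the list was Tfeb, whose probe set went against the label.

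Hif1a, the oxygen-sensing factor, was the higher one, at 0.98 ± 0.15 (1.98-fold, adjusted p = 0.00487), with 9.78, 9.49 and 9.90 on the TFEB arrays, against 8.68, 9.01 and 8.54 on the GFP arrays. Its other probe sets gave 0.51 (adjusted p = 0.0129), -0.053 and -0.13 and did not pass. The last of them was dim, at a mean of 3.40 on the TFEB arrays and 3.53 on the GFP arrays. Crtc2, a coactivator of CREB, was 0.56 and under the fold limit, and 0.60 without GFP replicate 2, past it (adjusted p = 0.00248).

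Other genes of mitochondrial DNA transcription and replication were measured for 17 of 20. By limma 0 were higher and 2 lower (median -0.069), where 8.62% and 4.9% of all genes were. At an unadjusted p under 0.05, 3 were higher and 5 lower, and the two-tailed test gave the same counts of 0 and 2. Mgme1, a nuclease that trims replicating mitochondrial DNA, was -0.80 ± 0.081 (adjusted p = 0.00128), but its other probe set was at -0.00087 (adjusted p = 0.995). That other probe set was dim, at a mean of 4.42 in either group. Top1mt, the mitochondrial topoisomerase, was -0.68 ± 0.11 (adjusted p = 0.00522). Rrm2b, a ribonucleotide reductase subunit that supplies mitochondrial nucleotides, was -0.51 and under the fold limit, and without TFEB replicate 1 it was -0.61 and passed.

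**Figure D4:**
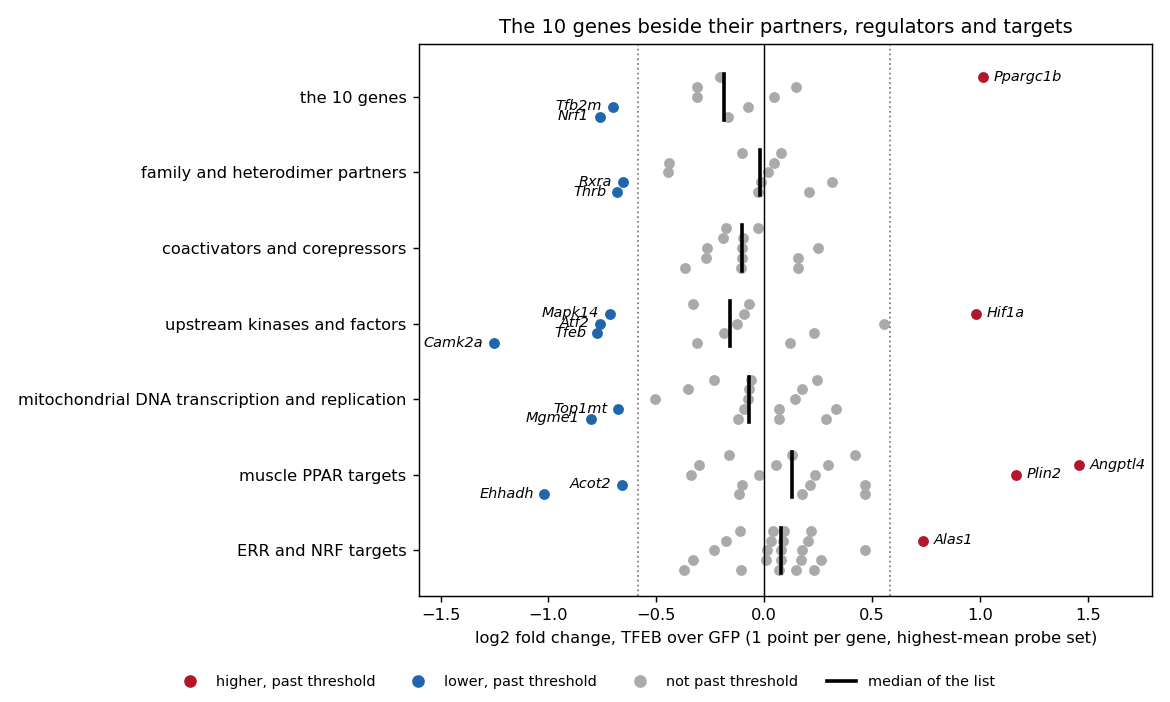
Log2 fold change of TFEB over GFP (x axis) for the 10 genes and for their partners, coregulators, upstream regulators, mitochondrial DNA genes and targets (rows), with 1 point per gene, black bars for list medians, and dotted lines at 1.5-fold. Named points passed the threshold, and the medians of all 7 lists lie between -0.19 and 0.13.

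Targets of PPARs in muscle were measured for 19 of 24 genes, of which 2 were higher and 2 were lower (median 0.13), where 8.62% and 4.9% of all genes were. At an unadjusted p under 0.05 by limma 7 were higher and 3 lower, a limit that at least 32.6% of all probe sets pass. The two-tailed test called 1 higher and 1 lower. Angptl4, an inhibitor of lipoprotein lipase, gave 7.91, 7.63 and 7.56 on the TFEB arrays, against 6.39, 6.12 and 6.21 on the GFP arrays. The difference was 1.46 ± 0.12, or 2.75-fold (adjusted p = 0.000742). The other Angptl4 probe set was 0.017 (adjusted p = 0.900). That probe set was dim, at a mean of 2.62 on the TFEB arrays and 2.60 on the GFP arrays. These means were close to the lowest values of the arrays, so little is read from it. Ehhadh, the peroxisomal bifunctional enzyme of fatty acid oxidation, gave 5.69, 5.69 and 5.32 on the TFEB arrays, against 6.77, 6.36 and 6.63 on the GFP arrays (-1.02 ± 0.15, 2.03-fold lower, adjusted p = 0.00371). These 2 listed targets, picked by smallest p, lay in opposite directions, and which receptor acts on them in this muscle was not tested.

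Plin2, a lipid droplet coat protein that macrophages also express, gave 9.34, 9.55 and 9.87 on the TFEB arrays, against 8.08, 8.97 and 8.22 on the GFP arrays, where the high value was that of replicate 2, which was also high in macrophage markers. Its difference of 1.17 ± 0.25 (adjusted p = 0.0146) lost its call without TFEB replicate 3 (1.02, adjusted p = 0.0566) and without GFP replicate 3 (1.07, adjusted p = 0.0560). Acot2, a mitochondrial acyl-CoA thioesterase, was -0.66 ± 0.14 (adjusted p = 0.0149), a call lost without TFEB replicate 3 (-0.53, adjusted p = 0.0396, under the fold limit), GFP replicate 1 (-0.58, adjusted p = 0.0502) or GFP replicate 3 (-0.65, adjusted p = 0.0533). In the two-tailed test, Thrb, Plin2 and Acot2 also lost their calls (adjusted p = 0.0648, 0.0738 and 0.0652). The mitochondrial β-oxidation enzymes Acadl and Acaa2 and the fatty acid carrier Fabp3 were 0.47, 0.47 and 0.42 (adjusted p = 0.0121, 0.0222 and 0.0266), under the fold limit.

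Targets of ERRα and the nuclear respiratory factors were measured for 24 of 25 genes. By limma 1 was higher and 0 were lower (median 0.078), where 8.62% and 4.9% of all genes were. At an unadjusted p under 0.05, 6 were higher and 3 lower, and the two-tailed test gave the same counts of 1 and 0. The higher gene was Alas1, which starts haem synthesis. It gave 10.42, 10.58 and 10.50 on the TFEB arrays, against 9.76, 9.70 and 9.83 on the GFP arrays (0.73 ± 0.076, 1.66-fold, adjusted p = 0.00139), and its other probe set was 0.44 (adjusted p = 0.0115), under the fold limit. The remaining 23 did not pass. Tomm34, a cochaperone of mitochondrial import, was at 0.47 (adjusted p = 0.00871) and Surf1, an assembly factor of cytochrome oxidase, at -0.37 (adjusted p = 0.0161), both under the fold limit.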

How the data were processed

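The authors deposited a log2 value for each probe set on each array. According to the labels, affy and RMA (background correction, quantile normalization, summary over probes) made these values, with versions not given in the sources used here. RMA compresses changes of dim and very bright probe sets, and quantile normalization removes part of any shift common to most transcripts. The 64 control probe sets were left out of 22690, and 22626 were tested with limma 3.58.1 under R 4.3.3 (lmFit, then eBayes, 2 groups of 3 arrays, two-sided, Benjamini-Hochberg). Each log2 fold change is TFEB minus GFP, and ± gives its SE. GEO's platform annotation gave 20380 probe sets a single symbol, and a gene of several was read by that of highest mean, with the others named where they disagree. All 17 member probe sets had a mean log2 value of at least 5, and 29.2% of all were below it. Detection was not tested, and since arrays give no depth, precision depends on how many there are. The members, the lists and the rule for named genes (all members, and of each list up to 4 genes of smallest p past the threshold in each direction, or 2 where none passed) were chosen with earlier results of these data known. The fit was tested on simulated data.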

Additional observations from a re-analysis of the deposited data

How the results depend on the processing

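The calls of Ppargc1b, Nrf1 (1424787_a_at) and Tfb2m kept their direction and their side of the threshold when each array was left out, with array weights, after repeated quantile normalization, after setting equal medians, with only probe sets of mean log2 of at least 5, and in the two-tailed test that the methods name. Of 204 recomputed values of single probe sets of the 10 genes, 192 kept direction and side, 12 turned round and 0 lost a call, and these 12 were all of probe sets that had no call. Of 10 values read as the mean of a gene's probe sets, 8 kept direction and side, 1 turned round and 1 lost its call, which left 1 lower member gene, since Nrf1 became -0.25. Ppargc1a 1434100_x_at turned to -0.024 without TFEB replicate 1, -0.096 without GFP replicate 2, -0.057 with equal medians, -0.018 after repeated quantile normalization and -0.058 with array weights. Ppargc1a 1460336_at turned to 0.033 without TFEB replicate 3 and 0.034 as the mean of the gene's probe sets, 1434099_at to 0.063 without TFEB replicate 3, 0.047 without GFP replicate 1 and 0.029 without GFP replicate 3, and 1437751_at to 0.036 without TFEB replicate 3. Tfam turned to -0.0079 without GFP replicate 2 and -0.022 with equal medians. Over the arrays left out, 1460336_at ran from -0.17 to 0.033, 1434100_x_at from -0.096 to 0.069, 1434099_at from -0.13 to 0.063, 1437751_at from -0.098 to 0.036 and Tfam from -0.0079 to 0.10. The cause was not tested.

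Same-numbered arrays of the 2 groups deviated together with r of 0.42, 0.17 and -0.23, and differently numbered ones with r from -0.44 to 0.33. Whether the replicate numbers stand for a pairing of the mice cannot be told from these values. With the replicate number as a block, 1686 probe sets were higher and 1366 lower, against 1700 and 1382 without it, and no member call changed. With 3 arrays per group and probe sets whose SE ran from 0.066 to 0.15, the adjusted p of Ppara, Ppard and Gabpa 1450665_at fell on either side of 0.05 among the alternatives, and none of them reached the fold limit. The mean of the Gabpa probe sets, at a limma adjusted p of 0.0456, was also under the fold limit. Each mouse gave 1 array, and p-values measure the spread between these 6 mice only. Probe sets read short parts of transcripts, and which transcripts the Nrf1 and Ppargc1a probe sets read was not tested.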
